A study of Mus musculus with 16 samples.

Results

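A small group of genes that mouse embryos transcribe at the two-cell stage was followed in blastocysts, the later stage with an outer trophectoderm, an inner cell mass and a cavity. The group holds Zscan4c, Tcstv1, Tcstv3, Zfp352, Usp17la and Spz1. Every probe set whose platform annotation names 1 of these 6 genes was taken, dim ones included, which gave 7 of the 45037 probe sets measured in all samples. In all, 18193 genes had a probe set that names them alone, as all members but Zscan4c did. The RNA was that of whole blastocysts in 4 groups: SB, given the p38 MAP kinase inhibitor SB203580 at 20 µM; SP, given the JNK inhibitor SP600125 at 25 µM; U, given the MEK inhibitor U0126 at 20 µM; and WT, for which no treatment is named. The labels give no strain, no treatment time and no number of embryos per sample, and they do not say whether WT embryos received the solvent of the inhibitors. Each group had 3 replicates. The small sample labelling assay was used for replicate 1, which was read on a 430A and a 430B array, and the two-cycle assay for replicates 2 and 3, which were read on 430 2.0 arrays. Nothing in the labels states that the replicates came from separate cultures, and the p-values measure only the spread between these samples, which may be technical.

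In the mouse, the embryo's own genome is switched on in a major wave at the two-cell stage. That wave includes a set of gene families, several of them in tandem clusters, and retrotransposons of the MERVL class, most of which fall silent again at later cleavage stages. Mouse embryonic stem cell cultures contain rare cells that turn the same set on for a short time, and the transcription factor Dux is known to activate many of its genes there. Zscan4 proteins carry a SCAN domain and zinc fingers and are known for telomere lengthening in mouse embryonic stem cells. Tcstv1 and Tcstv3 are two-cell-stage transcripts that have also been tied to telomere length in those cells. Zfp352 is a zinc finger gene, Usp17la encodes a deubiquitinating enzyme of the DUB family, and Spz1 is a leucine zipper transcription factor known from the testis.

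The RefSeq promoter windows of Zscan4c, Usp17la and Zfp352 are shown because the probe sets that name these genes share the rise in SP embryos described below, with that of Zscan4c shared by its family. Each window is the 250 bases before the annotated start in GRCm38.p6, read 5′ to 3′ on the gene's strand, and capitals mark the matches named after the sequences. The Zscan4c window is chr7:11005495-11005744 on the plus strand, that of Usp17la is chr7:104856766-104857015 on the plus strand, and that of Zfp352 is chr4:90218570-90218819 on the plus strand.
Zscan4c: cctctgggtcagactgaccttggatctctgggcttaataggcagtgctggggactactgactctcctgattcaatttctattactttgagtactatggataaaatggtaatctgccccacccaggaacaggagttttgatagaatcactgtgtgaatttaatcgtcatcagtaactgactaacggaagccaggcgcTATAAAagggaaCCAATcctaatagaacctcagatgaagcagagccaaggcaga
Usp17la: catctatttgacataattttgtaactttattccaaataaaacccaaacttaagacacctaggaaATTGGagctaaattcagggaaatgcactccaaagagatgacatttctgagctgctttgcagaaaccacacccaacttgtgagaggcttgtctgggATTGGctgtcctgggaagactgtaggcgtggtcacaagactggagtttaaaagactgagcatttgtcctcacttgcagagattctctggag
Zfp352: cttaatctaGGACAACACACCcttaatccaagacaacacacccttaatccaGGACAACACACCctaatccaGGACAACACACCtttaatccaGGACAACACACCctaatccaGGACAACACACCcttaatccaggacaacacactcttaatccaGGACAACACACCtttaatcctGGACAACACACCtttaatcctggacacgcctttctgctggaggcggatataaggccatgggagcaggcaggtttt

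The Zscan4c window held TATAAA, the core of a TATA box, starting 54 bases before the start, and CCAAT, the core of a CCAAT box, 42 bases before it. The Usp17la window held CCAAT on the opposite strand, printed as ATTGG, at 186 and 91 bases before the start. Among all 32851 promoter windows of the same length, searched on both strands, 12.4 percent held TATAAA and 33.8 percent held CCAAT. The Zfp352 window held 7 copies of GGACAACACACC, a repeat unit that was chosen after the sequence was seen. It was the single window of the 32851 (0.00304 percent) with this run. TGCACAC, a sequence known to be bound by ZSCAN4C, was also searched on both strands. It was present in 3.67 percent of all windows and in none of the 4 members' windows available, those of Zscan4c, Usp17la, Zfp352 and Spz1. These matches describe the letters in the windows and are not binding sites shown by these data. No window of Tcstv1 or Tcstv3 was used here.

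All 7 probe sets gave their highest signals in SP embryos. Within both array types, every SP value lay above every SB, U and WT value for each of the 7, a pattern found for 792 of all 45037 probe sets (1.76 percent). In limma's moderated test with adjustment over all probe sets, 5 of the 7 were called higher in SP than in WT, where 0.14 percent of all probe sets were called higher. None of the 7 was called in SB against WT, where 0.206 percent of all probe sets were called in either direction, or in U against WT, where 0.22 percent were. The signals are in array units, on arrays that the authors had scaled to a common mean of 500. Replicate 1 was labelled and read on another array type, so its level is set only against the other groups' replicate 1. In whole embryos, more cells expressing a gene and more RNA per expressing cell cannot be told apart.

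**Figure D1:**
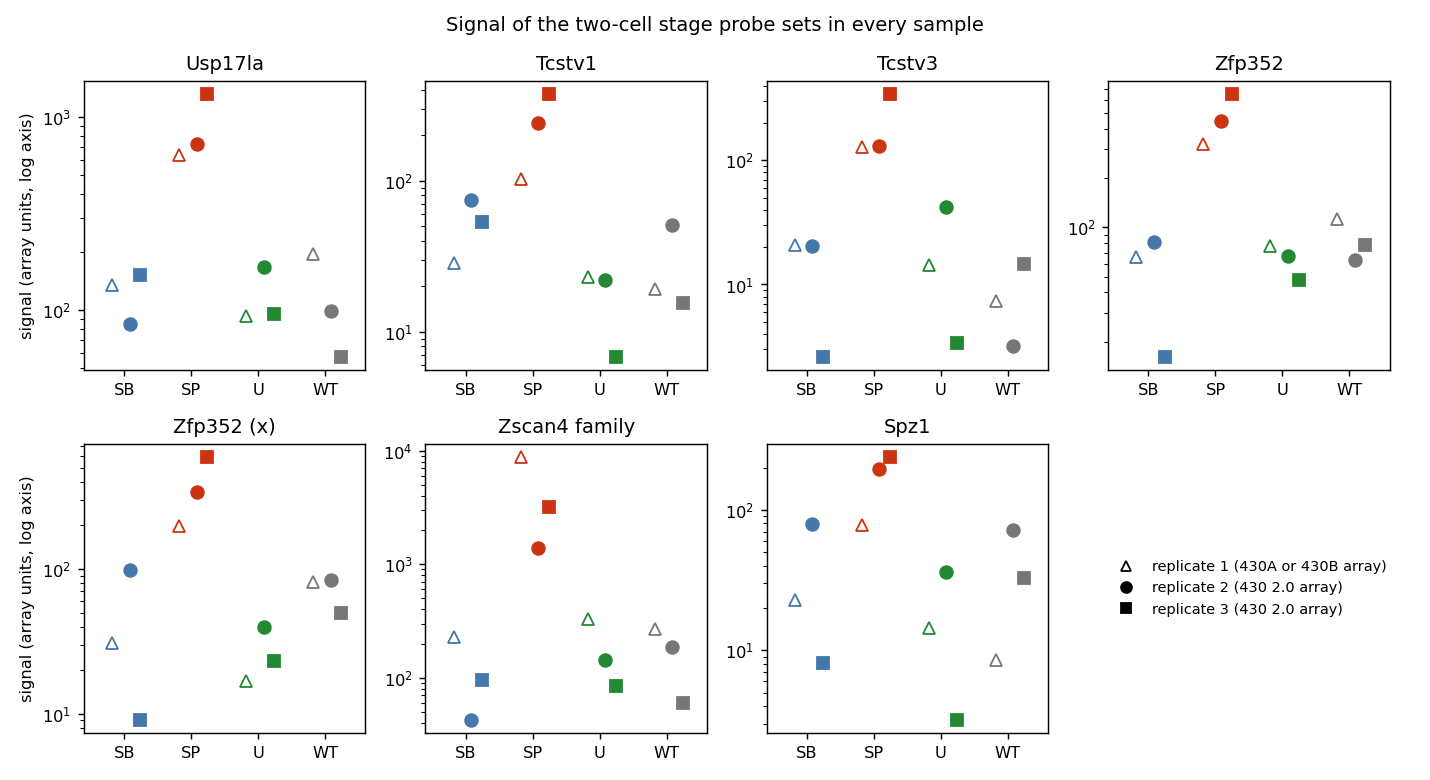
Signal in array units (log axis) of the 7 probe sets of the two-cell stage genes in each sample of SB, SP, U and WT. Open triangles are replicate 1 on the 430A array (430B for the Zscan4 family), filled circles and squares are replicates 2 and 3 on 430 2.0 arrays, and in every panel the SP points lie above all others of their array type. The panel marked (x) is the Zfp352 probe set whose name ends in _x_at.

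The Zscan4 family had the largest change of the group. Its probe set, 1457033_at, is annotated to 6 genes, among them Zscan4a, Zscan4c, Zscan4d and Zscan4f on chromosome 7, so the signal belongs to the family and cannot be given to Zscan4c alone. In SP embryos the signal was 8787.9 in replicate 1 and 1394.5 and 3204.6 in replicates 2 and 3. In SB embryos it was 226.7, 42.7 and 96.0, in U embryos 331.2, 144.6 and 84.4, and in WT embryos 266.2, 184.8 and 60.3. The lowest SP value was thus 26.5 times the highest other value in replicate 1 and 7.55 times on the 430 2.0 arrays, and the other 3 groups overlapped each other. On the 430 2.0 arrays SP embryos averaged 2299.6 ± 1279.9 and WT embryos 122.6 ± 88.0 (SD, n = 2 each). The fitted log2 change of SP against WT was 4.43 ± 0.38 (SE, n = 3 per group), a 21.5-fold difference with a limma adjusted p of 2.54e-05. It had rank 1 of 45037 by the moderated t and rank 3 by the size of the rise.

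Tcstv3, probe set 1451852_at on chromosome 13, was close to the floor of the arrays outside SP. Its signal was 127.3, 130.9 and 341.7 in SP embryos. It was 20.9, 20.6 and 2.6 in SB embryos, 14.4, 41.8 and 3.4 in U embryos, and 7.4, 3.2 and 14.5 in WT embryos. The groups did not overlap between SP and the rest, while the other 3 groups were mixed. The rise in SP over WT was 3.23 ± 0.56 on the log2 scale (limma adjusted p = 0.0114). A constant of 12.6 was added to every signal before the log2 was taken, which understates the change of a gene this dim: without it, SP was 17.2 times WT in replicate 1 and 26.7 times in the 430 2.0 means. The WT signals of 7.4 and 3.2 lay under the 20th percentile of their arrays (30.5 and 10.7), so these ratios describe the values and carry no test. The call was made in 12 of the 17 settings and in 3 of the 6 that left out a single sample; it was lost without WT replicate 1, WT replicate 2 or SP replicate 3 (adjusted p = 0.0756, 0.0859 and 0.0899).

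Tcstv1, on probe set 1420729_at and on chromosome 13 as well, was likewise highest in SP. It had 102.1, 242.5 and 374.7 in SP embryos. The other groups had 28.6, 74.7 and 53.4 (SB), 23.2, 22.0 and 6.8 (U) and 19.1, 50.9 and 15.6 (WT). SP replicate 1 stood 3.57 times above the next highest replicate 1, that of SB. The replicate 1 signals of U and WT lay under the 20th percentile of their arrays (24.5 and 30.5), and that of SB was close to it (25.2). Ratios to these values are thus ratios to signals near the floor. The rise over WT was 2.55 ± 0.54 with a limma adjusted p of 0.0478, near the threshold of 0.05. This call was made in 4 of 17 settings, the reported one included, and in none of the 6 that left out a single SP or WT sample, and the adjusted p ran from 0.0197 to 0.317 over these settings while the change stayed between 1.79 and 2.94.

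Zfp352, on chromosome 4, was read by a pair of probe sets that gave different calls. The first, 1425879_at, had 320.8, 445.4 and 649.8 in SP embryos. It had 65.7, 81.4 and 16.1 in SB embryos, 76.3, 67.1 and 47.6 in U embryos, and 112.4, 62.8 and 78.4 in WT embryos. Its rise in SP over WT was 2.29 ± 0.47 (limma adjusted p = 0.0395), a call made in 7 of the 17 settings and in 1 of the 6 that left out a single sample (adjusted p from 0.0125 to 0.361). The second, 1425880_x_at, whose suffix marks probes that may also bind other transcripts, had 198.5, 336.5 and 592.4 in SP embryos against 80.8, 84.3 and 49.3 in WT embryos. It stood at 30.8, 98.4 and 9.1 in SB embryos and at 16.8, 39.9 and 23.3 in U embryos. Its change was 2.10 ± 0.57, and with an adjusted p of 0.198 it was not called. Both probe sets showed SP above every other sample of the same array type.

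Usp17la, probe set 1420773_at on chromosome 7, had a rise next in size to that of Tcstv3. SP embryos had 638.8, 723.6 and 1318.5. SB embryos had 134.4, 84.3 and 152.7, U embryos 92.7, 168.1 and 95.9, and WT embryos 195.4, 99.4 and 57.0. The lowest SP value was 3.27 times the highest other value in replicate 1 and 4.30 times on the 430 2.0 arrays. Usp17la rose by 2.87 ± 0.41 on the log2 scale in SP against WT, a 7.3-fold difference with a limma adjusted p of 0.00208. It kept the call in 16 of the 17 settings and in all 6 omissions of a single sample, as did the Zscan4 family, and the exception for both was the fit without an intensity trend.

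Spz1, on probe set 1450653_at and on chromosome 13, had the smallest change of the group. It had 77.4, 196.4 and 238.3 in SP embryos, 22.7, 79.5 and 8.1 in SB embryos, 14.5, 36.2 and 3.2 in U embryos and 8.5, 71.8 and 32.8 in WT embryos. SP was the highest group on both array types, while the SB, U and WT values on the 430 2.0 arrays were widely spread, from 3.2 to 79.5. In replicate 1 the SB, U and WT signals lay under the 20th percentile of their arrays (25.2, 24.5 and 30.5). The change against WT was 1.96 ± 0.62 (95 percent interval 0.66 to 3.25), and the adjusted p of 0.372 did not pass. Among 7 male germ line markers with a probe set, Sycp3, a protein of the meiotic chromosome axis, was called higher in SP than in WT (1.15 ± 0.17, adjusted p = 0.00297). The summed signal of these 7 genes was 959.5, 2532.2 and 3304.7 in SP embryos and 833.5, 1293.9 and 1495.3 in WT embryos. It was 542.2, 1209.6 and 1378.3 in SB embryos and 622.7, 2088.1 and 2246.9 in U embryos. On the 430 2.0 arrays U was thus also above WT in this sum, while its Spz1 signals there were 36.2 and 3.2. The part of this sum in the Spz1 values was not tested.

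**Figure D2:**
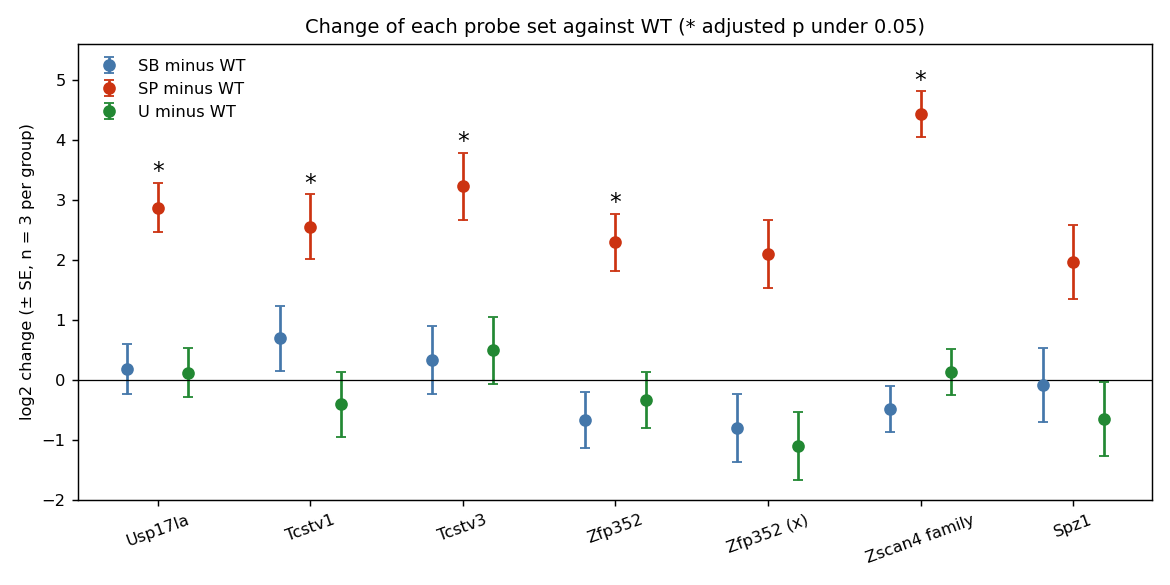
Log2 change against WT (vertical axis) of each probe set for SB, SP and U, with bars of 1 SE (n = 3 per group). The SP changes run from 1.96 to 4.43 and 5 of 7 carry a star (limma adjusted p under 0.05), while the SB and U changes lie between -1.11 and 0.69 with no star.

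The size of the rise differed between replicates. Taken from the WT mean of the same array type, the Usp17la differences in SP were 1.65, 3.06 and 3.91 on the log2 scale for replicates 1, 2 and 3. Those of Tcstv1 were 1.86, 2.59 and 3.19, those of Tcstv3 2.81, 2.79 and 4.10, and those of Zfp352 1.42, 2.47 and 3.0. In these 4 genes replicate 3 was the highest. The Zscan4 family differed in this, with 4.98 in replicate 1, 3.55 in replicate 2 and 4.75 in replicate 3, and so did Spz1 with 2.09, 1.76 and 2.02. On the 430 2.0 arrays SP replicate 3 was above SP replicate 2 for all 7 probe sets, by 1.21 to 2.61 times, where 52.5 percent of all probe sets had the higher value in replicate 3. The 430A and 430B arrays of SP replicate 1 also had the highest ratio of 3′ to 5′ actin signal of their type, 3.66 and 3.22 against 1.62 to 2.81 and 1.49 to 2.63 in the other groups. On the 430 2.0 arrays that ratio was 1.58 to 1.75. Its part in the replicate 1 values was not tested, and the SP values stood above the rest on the 430 2.0 arrays as well.

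**Figure D3:**
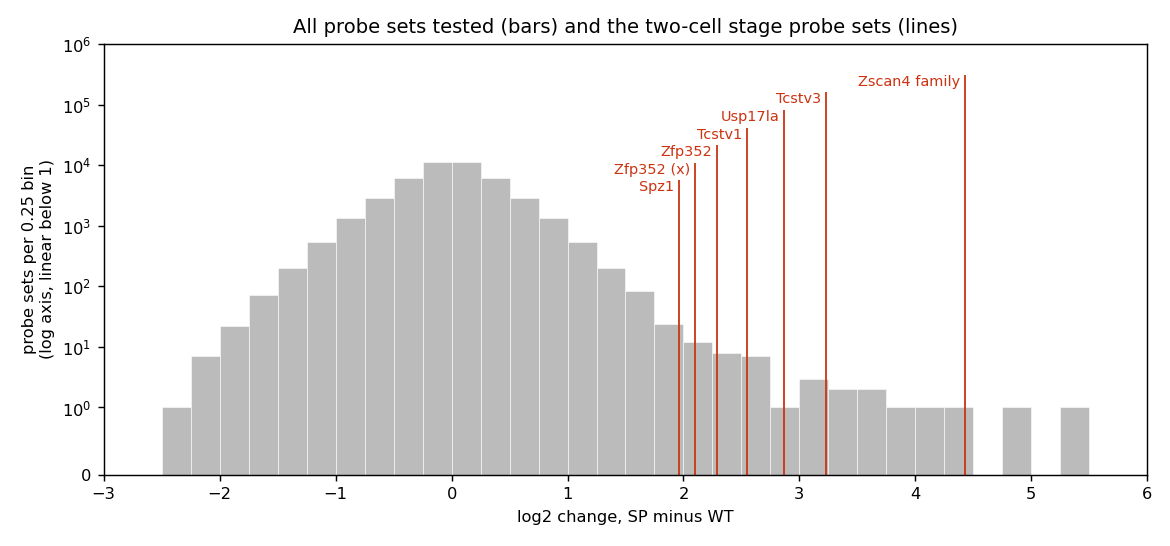
Number of probe sets (log axis, linear below 1) per bin of 0.25 in the log2 change of SP minus WT, for all 45037 probe sets (bars), with the 7 probe sets of the two-cell stage genes as lines. All 7 lie in the upper tail, from Spz1 at 1.96 (rank 45 by size) to the Zscan4 family at 4.43 (rank 3).

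The median log2 change of the 7 probe sets in SP against WT was 2.55, beside a median of 0 over all probe sets. With SB in the place of WT the members' median was 2.91 beside -0.02, and with U it was 2.76 beside -0.09. These comparisons share the SP samples, so they are given side by side and do not count as separate evidence. Against SB, 5 of 7 were called higher (0.32 percent of all probe sets): the Zscan4 family at 4.92 ± 0.38 (adjusted p = 2.44e-06), Zfp352 at 2.97 ± 0.47 on its first and 2.91 ± 0.57 on its second probe set, Tcstv3 at 2.91 ± 0.56 and Usp17la at 2.69 ± 0.41. Tcstv1 at 1.86 ± 0.54 (adjusted p = 0.205) and Spz1 at 2.04 ± 0.62 (adjusted p = 0.238) did not pass there. Against U, all 7 were called higher (0.679 percent of all probe sets), from Spz1 at 2.61 ± 0.62 (adjusted p = 0.0407) to the Zscan4 family at 4.30 ± 0.38 (adjusted p = 3.18e-05). Leaving out SP replicate 3 reduced the called members from 7 to 2 against U, from 5 to 2 against SB and from 5 to 2 against WT, and leaving out WT replicate 1 or WT replicate 2 reduced them to 2 against WT. Without WT replicate 3 or SP replicate 2 there were 3 against WT. Without SB replicate 1, SB replicate 3 or SP replicate 2 there were 3 against SB. Calls among all probe sets fell as well. Without SP replicate 3 they fell to 276 from 600 against U, to 84 from 195 against SB and to 69 from 143 against WT. Against WT they fell to 82, 82, 69 and 81 without WT replicates 1, 2 and 3 and SP replicate 2. Against SB they fell to 118, 94 and 80 without SB replicates 1 and 3 and SP replicate 2.

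SB and U embryos gave no call for any of the 7 in limma's test, and none had an unadjusted p under 0.05. The SB changes against WT ran from -0.81 for the second Zfp352 probe set to 0.69 for Tcstv1, with a median of -0.09 beside 0.02 over all probe sets. For the Zscan4 family SB was at -0.49 (95 percent interval -1.29 to 0.30), and for Usp17la at 0.18 (-0.67 to 1.03). The U changes ran from -1.11 for the second Zfp352 probe set (adjusted p = 0.557, the lowest of the 7) to 0.49 for Tcstv3, with a median of -0.34 beside 0.08. For the Zscan4 family U was at 0.13 (-0.67 to 0.92) and for Usp17la at 0.12 (-0.74 to 0.97). These intervals do not show that the levels were alike. Set against each other, SB and U differed most for Tcstv1, at 1.10 ± 0.54 (adjusted p = 0.491), and none of the 7 was called where 0.662 percent of all probe sets were.

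The members' signals did not order the 9 SB, U and WT samples alike. With array-type means removed, each member's log2 signal correlated with the mean of the other members at Pearson r of 0.86 (Spz1) to 0.93 (Tcstv3) over the 12 samples. Without the 3 SP samples the same values were 0.66 for Spz1, 0.34 for Tcstv3, 0.27 for Tcstv1, 0.22 for Zfp352, -0.02 for the Zscan4 family and -0.05 for Usp17la. These are descriptions of few samples that share arrays and scaling. Some members were near the array floor outside SP, such as Tcstv3 at 2.6 to 41.8. Low correlations among such signals cannot show that the genes themselves vary apart.

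Most other genes of the two-cell stage were not called on probe sets of their own. Of 43 such genes listed, 15 had probe sets that name them alone, 23 in all. In SP against WT the list median was 0.15 beside 0 over all probe sets. There 1 gene was called higher, on 1 of the 23 probe sets, where 0.14 percent of all probe sets were called higher. That gene was Ddit4l, a relative of the stress-induced mTOR inhibitor Ddit4. Its probe set 1451751_at had 447.0, 607.6 and 1171.9 in SP embryos and 165.8, 184.4 and 146.0 in WT embryos, a rise of 1.97 ± 0.31 (adjusted p = 0.00495). SB embryos had 181.8, 220.7 and 234.9 and U embryos 179.2, 128.9 and 132.8, so that SP did not overlap the rest. The other 2 Ddit4l probe sets had changes of 1.01 and 0.99 and were not called. Sp110 on 1456493_at had a change of 1.16 ± 0.27 (adjusted p = 0.0983), and Obox6 and Ubtfl1 had 0.67 and 0.78, none of them called. Duxf3, a double homeobox gene of the Dux family, had 240.9, 22.5 and 83.3 in SP embryos, with a change against WT of 0.32 ± 0.48 (adjusted p = 0.981). No gene of this list was called in SB or U, where 0.206 and 0.22 percent of all probe sets were, with medians of -0.10 and -0.16. Some of the 23 probe sets were dim in every group, such as 1438841_s_at of Arg2 at 0.8 to 57.2. Another was 1429562_at of Sp110 at 7.0 to 63.5. An absence of calls on such probe sets says little about their genes.

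A further 10 listed genes were read by 9 probe sets, members' own left out, that the annotation gives to several genes. The other 18 were on none of these, but Zscan4a, Zscan4d and Zscan4f among them are named on the Zscan4 family probe set described above. Of the 9 probe sets, 3 were called higher in SP than in WT (0.14 percent of all probe sets) and none lower. None was called in SB or U, where 0.206 and 0.22 percent of all probe sets were. The probe set 1443961_at, annotated to 7 genes with Gm4340 among them, had 19080.8, 5245.5 and 14722.2 in SP embryos against 388.0, 591.5 and 95 in WT embryos. Its rise was 5.26 ± 0.78 (adjusted p = 0.00288), the largest of any probe set in SP against WT. The probe set 1427479_at, given to BB287469, Gm4027 and Eif1a, had 1072.7, 5263.1 and 7780.8 in SP embryos against 247.4, 478.0 and 133.6 in WT embryos, a rise of 3.74 ± 0.45 (adjusted p = 0.000493). The 2 probe sets that name Eif1a alone had changes of -0.16 and -0.05. The probe set 1444529_at of Gm2022, Gm5662 and Gm8300 had 510.4, 775.5 and 1079.0 in SP embryos against 178.5, 140.7 and 43.4 in WT embryos, a rise of 2.70 ± 0.53 (adjusted p = 0.0329). Probe sets shared by Usp17lc and Usp17ld, relatives of Usp17la, had changes of 0.01 and 0.22 and were not called. Their signals were dim in every group, at 2.7 to 36.2 and 4.0 to 57.7, which limits what these changes can show. These families hold near-identical copies, so their signals cannot be divided among the genes named.

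Genes known from embryonic stem cells to promote or repress the two-cell programme showed no call. Of 26 listed, 24 had 55 probe sets between them. None was called in SB, SP or U against WT, with medians of -0.06, -0.02 and 0.11. Of all 45037 probe sets, 93, 143 and 99 were called there, so an absence of calls among 55 says little about these genes. Dppa2 with Dppa4 is known to activate Dux in mouse embryonic stem cells. On 1429654_at Dppa2 had 7972.0, 8974.3 and 10256.2 in SP embryos, 3134.6, 5956.1 and 5806.5 in U embryos and 5074.9, 7520.3 and 8096.1 in WT embryos. Its changes there were 0.42 ± 0.13 in SP (adjusted p = 0.321) and -0.50 ± 0.13 in U (adjusted p = 0.133). Its brighter probe set, 1453223_s_at, differed less between U and WT. It had 6306.9, 17829.9 and 18552.1 in SP embryos, 4882.2, 14701.7 and 12992.7 in U embryos and 5142.7, 15004.2 and 17696.2 in WT embryos. Dppa4 on 1429597_at was at 0.37 ± 0.11 in SB (adjusted p = 0.319). Lin28a on 1437752_at was at -0.65 ± 0.23 in SB (adjusted p = 0.463) and Myc on 1424942_a_at at -0.60 ± 0.23 in SP (adjusted p = 0.57).

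The 8 genes of other lists or none whose pattern was most like the members' mean profile over the 12 samples were chosen by Pearson correlation, which uses the same SP rise, so their changes are a description. Ddit4l came first at 0.944, followed by Fundc1, a mitophagy receptor, at 0.942, 9530057J20Rik at 0.939, AF067061 at 0.937, Hnrnph1, an RNA-binding protein of splicing, at 0.931, Grb10, an adaptor of insulin receptor signalling, at 0.929, BC080696 at 0.925 and Dnajb6, a heat shock co-chaperone, at 0.925. BC080696 had a change of 4.21 (limma adjusted p = 0.000103) beside the 4.43 of the Zscan4 family. Its signal was 3853.2, 1015.1 and 2612.2 in SP embryos against 214.4, 146.1 and 33.1 in WT embryos. AF067061 had 653.7, 1136.6 and 2431.2 in SP embryos against 15.7, 148.2 and 8.5 in WT embryos. Its change of 4.75 ± 0.72 (limma adjusted p = 0.00323) was above that of the Zscan4 family. Its probe set, 1425220_x_at, has the suffix of probes that may also bind other transcripts, so its signal may not be that of AF067061 alone. Neither BC080696 nor AF067061 was on the list of other two-cell stage genes, so the counts given for that list leave them out. Grb10 had 1256.1, 1641.5 and 2105.0 in SP embryos against 513.3, 560.2 and 932.1 in WT embryos. Hnrnph1 and Dnajb6 had changes of 0.56 each, so a high correlation did not need a large change.

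**Figure D4:**
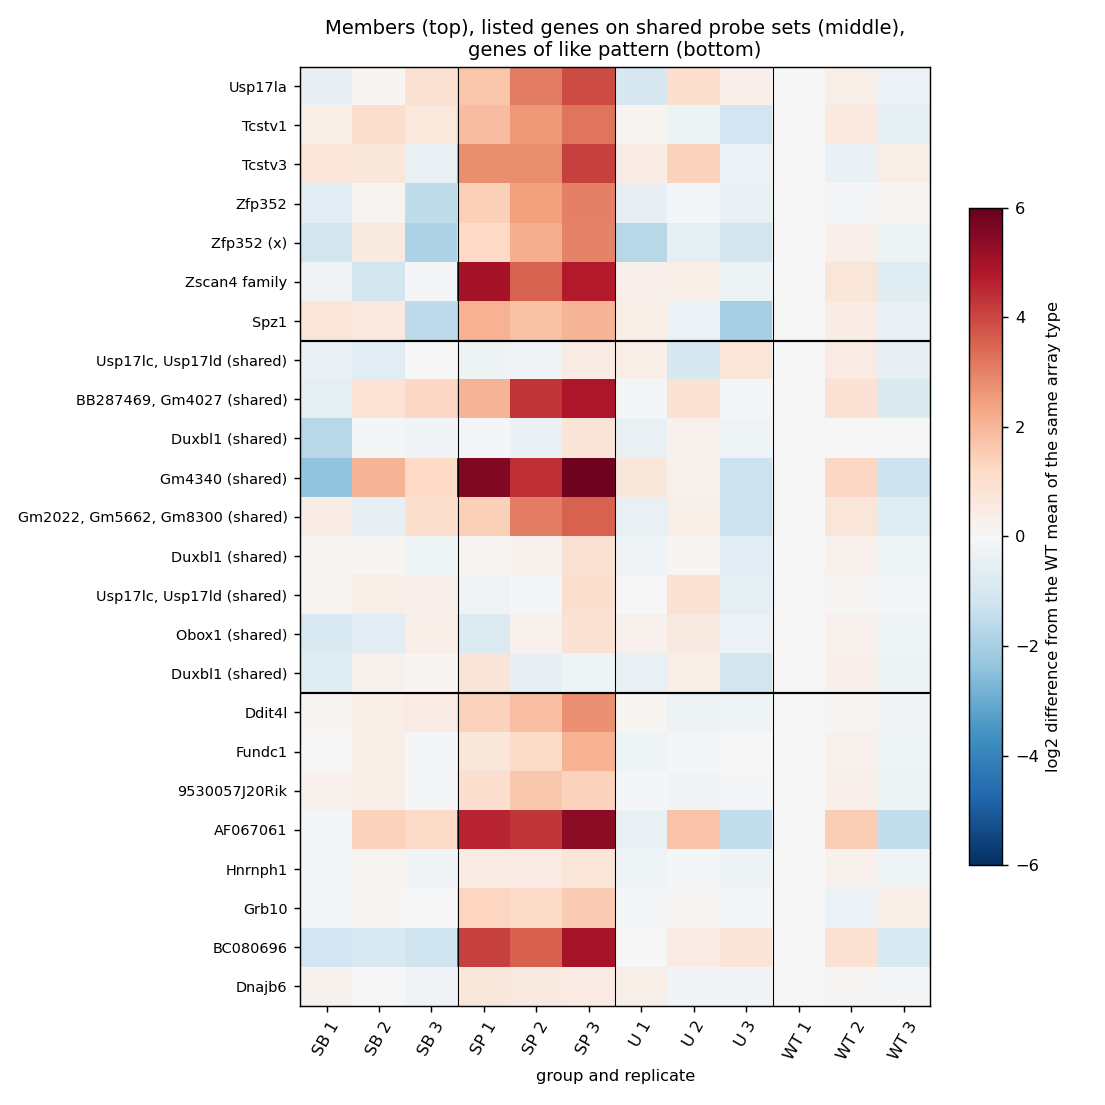
Log2 difference of each sample (columns, 3 replicates of SB, SP, U and WT) from the WT mean of the same array type, for the 7 probe sets of the two-cell stage genes (top), the 9 shared probe sets of other two-cell stage genes (middle) and the 8 genes of like pattern (bottom). All 3 SP values are positive in every row at the top and in 4 of the 9 rows of the middle block, of which 3 were called higher in SP than in WT, and WT replicate 1 is 0 by construction because it is the only WT sample of its array type.

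Markers of the cells that a blastocyst holds were present in all groups. The summed signal of 7 trophectoderm markers ran from 36514.6 to 43580.6 in the replicate 1 samples and from 93203.7 to 112471.2 on the 430 2.0 arrays. In SP embryos the primitive endoderm markers Pdgfra, Sox17 and Lama1 (3 of 5 genes) and the trophectoderm factor Elf5 (1 of 7) were called lower than in WT. These calls were on 4 of 11 and 1 of 14 probe sets, where 80 of all 45037 were called lower. In U embryos Sox2 and Fgf4 were called higher than in WT (2 of 5 inner cell mass and epiblast genes, 4 of 8 probe sets). Gata6 was called lower there, on 1 of the 11 primitive endoderm probe sets. Of all probe sets, 36 were called higher and 63 lower in U. The summed signal of the 5 primitive endoderm genes was 5261.5, 8928.9 and 8722.6 in SP embryos and 7020.9, 13760.6 and 14287.2 in WT embryos. It was 6045.8, 10538.7 and 13073.3 in SB embryos and 5048.7, 7497.4 and 9716.9 in U embryos, so a sum below WT was not particular to SP. The part of this sum in the two-cell stage values was not tested. Markers of cells that could be carried along were 12 oocyte and egg, 7 cumulus and granulosa, 5 uterine and oviduct and 6 blood and immune genes. None was called in any inhibitor group against WT. Of all 45037 probe sets, 93 were called in SB, 143 in SP and 99 in U, so this absence of calls says little. The summed oocyte and egg signal was 912.3, 451.8 and 299.2 in SP embryos, 723.7, 350.3 and 500.9 in SB embryos, 865.5, 408.8 and 641.8 in U embryos and 1055.5, 530.8 and 376.6 in WT embryos, so SP was not above WT in replicate 1 and the groups overlapped on the 430 2.0 arrays. The summed signal of the 5 uterine and oviduct genes was highest in SP within both array types, at 372.8, 244.9 and 265.2 in SP embryos, 228.4, 145.0 and 127.4 in SB embryos, 289.3, 193.1 and 191.2 in U embryos and 344.8, 161.5 and 186.7 in WT embryos. The median change of its 6 probe sets in SP against WT was 0.49 beside 0 over all probe sets, from Muc1, an epithelial mucin, at -0.94 to Ltf, lactoferrin, at 0.82 (adjusted p = 0.667 and 0.823), and its part in the two-cell stage values was not tested. The cumulus and granulosa sum was 1857.9, 291.7 and 374.5 in SP embryos and 2604.7, 315.4 and 343.2 in WT embryos, and the blood and immune sum 652.1, 462.0 and 445.8 in SP embryos and 619.8, 251.9 and 392.3 in WT embryos. The summed signal of the 6 two-cell stage genes was 10054.3, 3133.3 and 6127.6 in SP embryos against 609.0, 472.9 and 258.6 in WT embryos.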

How the data were processed

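Each probe set has 1 deposited signal intensity, linear in scale. The authors had scaled every array to a mean of 500 after trimming 2 percent from both ends, as the deposited values show. How probes were summarised and corrected for background, and with what software, is not given in the sources used. Replicate 1's 430A and 430B arrays were joined by label number, 64 control probe sets were left out, 12.6 (the 20th percentile of the 430 2.0 values) was added and the log2 was taken. No signal filter was used. limma 3.58.1 in R 4.3.3 fitted the 4 groups with array type as a fixed block and an intensity trend (residual degrees of freedom 7, prior 11.5 at the median). Two-sided p-values were adjusted by Benjamini-Hochberg across 45037 probe sets, with calls at an adjusted p under 0.05. Gene names came from the platform annotation; 34945 probe sets named 1 gene, 932 several and 9160 none. The fit was also run on simulated data with independent normal noise, which did not imitate the array floor. No result of that run is used here. The members, lists and tests were chosen with earlier results of these data known. Every member probe set is described; of the other lists, genes with a call against WT were named by rule, and otherwise up to 4 with the largest moderated t, and the other genes named with them were chosen after their values were seen. The 8 genes of like pattern needed a signal of at least 100 on at least 2 of the 8 430 2.0 arrays. The number of arrays limits the precision. Alternatives changed the constant, scaling, filter, fit and samples.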

Additional observations from a re-analysis of the deposited data

How the results depend on the processing

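In none of the alternatives tried did a called member change direction. In SP against WT, where 5 of 7 member probe sets were called, 3 were called with a constant of 4, with median centring and with quantile normalization, 2 on the 430 2.0 arrays alone and 0 without the intensity trend, a setting that left 0 calls among all probe sets (2600 at an unadjusted p under 0.05) and limma adjusted p-values of 0.0764 (Zscan4 family) to 0.709 (Spz1) for the members. Leaving out 1 sample gave 2 to 4. In SP against SB, also 5, the count was 3 on the 430 2.0 arrays alone, 1 without the trend, 3 with only the 2 groups in the fit and 2 to 5 with 1 sample left out. In SP against U, with 7, it was 4, 1 and 2 to 6 for the 430 2.0 arrays alone, no trend and 1 sample left out. SB against WT, U against WT and SB against U had 0 member calls in every setting. A replicate block left the member counts at 5, 5, 7 and 0 in the others and moved all calls in SP against WT to 157 from 143. The differences between replicates 2 and 3 were barely correlated from group to group (r from 0.001 to 0.038). That check took in dim probe sets and left out replicate 1, so it cannot exclude that same-numbered replicates were paired. Over the settings, calls among all probe sets ran from 0 to 160 in SP against WT (143 as reported), 0 to 107 in SB against WT (93), 3 to 121 in U against WT (99), 2 to 213 in SP against SB (195), 6 to 791 in SP against U (600) and 3 to 371 in SB against U (298). Median centring moved the median change of all probe sets in U against WT to -0.10 from 0.08 and in SP against U to 0.08 from -0.09, and the share of calls that were higher to 13.7 from 36.4 percent there, to 11.9 from 22.6 in SB against WT, to 89.1 from 73.8 in SP against SB, to 84.2 from 51.0 in SP against U and to 66.1 from 35.9 in SB against U. Dim signals near the array floor, such as Tcstv3 outside SP, limit the size of a change that can be given.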
